A study of Homo sapiens with 6 samples.

Results

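Ferroptosis is a form of cell death driven by iron-dependent peroxidation of membrane phospholipids, and 10 genes that set how a cell meets it were described here in the human hepatocellular carcinoma line Huh7. The genes were chosen by name and not by a rule on their values, with earlier results of these data known. They were GPX4, SLC7A11 and AIFM2, which limit lipid peroxidation, ACSL4 and LPCAT3, which place polyunsaturated fatty acids in phospholipids, and TFRC, FTH1, FTL, NCOA4 and SLC40A1, which take up, store, release and export iron. All 10 were found among the 19974 annotated genes of the deposited table, which lists 26184 genes and loci in all, and all 10 had enough reads to be tested. RNA-seq covered 3 samples of Huh7 P, the parental line without treatment, and 3 samples of Huh7 LR, the line derived from it under continuous lenvatinib from 1 to 20 μM for 10 months. Lenvatinib is a drug for advanced liver cancer that blocks kinases such as the receptors for VEGF and FGF. Both lines are labelled WT, Huh7 LR was kept in 20 μM lenvatinib, and whether the drug was present at harvest of the RNA samples is not stated. The replicates of Huh7 LR are samples of 1 resistant line, so p-values measure the spread between samples of these lines and not between independent derivations.

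In the textbook account, SLC7A11 brings cystine into the cell for glutathione synthesis, and GPX4, a selenoprotein, uses glutathione to reduce phospholipid hydroperoxides. AIFM2, also called FSP1, works beside GPX4 by regenerating the radical-trapping form of coenzyme Q. Iron enters with transferrin through TFRC, is stored in shells of FTH1 and FTL, is released when NCOA4 carries ferritin to lysosomes, and leaves the cell through ferroportin, the product of SLC40A1. Hepatocytes are a main store of body iron and the main source of plasma transferrin and of hepcidin, the hormone that removes ferroportin from the cell surface.

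Of the 10 genes, 4 held a match to the iron-responsive element, the hairpin bound by the iron regulatory proteins when iron is scarce, and these sequences are shown because the position of the hairpin sets what mRNA levels can show. Binding in a 5′ untranslated region blocks translation, whereas binding in the 3′ untranslated region of TFRC protects its mRNA. Hairpins were searched on the sense strand of GENCODE release 29 transcripts as a bulged C, 5 paired bases (G with T pairs allowed) on either side of the loop, and the loop CAGTGN. Below, 30 bases of each site are given from 5′ to 3′ with the 6 loop bases in capitals, on GRCh38.
FTH1, 5′ untranslated region, chr11:61967573-61967602, minus strand: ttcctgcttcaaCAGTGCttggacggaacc
FTL, 5′ untranslated region, chr19:48965335-48965364, plus strand: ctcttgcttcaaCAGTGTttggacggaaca
SLC40A1, 5′ untranslated region, chr2:189580660-189580689, minus strand: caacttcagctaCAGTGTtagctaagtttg
TFRC, 3′ untranslated region, chr3:196050978-196051007, minus strand: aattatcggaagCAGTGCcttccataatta
TFRC, 3′ untranslated region, chr3:196050574-196050603, minus strand: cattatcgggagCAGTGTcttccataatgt
TFRC, 3′ untranslated region, chr3:196050509-196050538, minus strand: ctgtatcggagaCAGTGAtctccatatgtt
TFRC, 3′ untranslated region, chr3:196050462-196050491, minus strand: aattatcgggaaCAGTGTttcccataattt
The 4 matches of TFRC lie in the same untranslated region. Of 19684 protein-coding genes, 291 (1.48%) held a match in at least 1 transcript. A match describes the letters and is not proof of a working site.

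The reads counted on genes totalled 62738937 to 71427573 per Huh7 P library and 63233655 to 70768720 per Huh7 LR library. Levels are given as CPM, read counts set to a common library size with TMM scaling, and differences are log2 fold changes of Huh7 LR against Huh7 P from edgeR's quasi-likelihood test, adjusted over the 17531 genes and loci tested. Hepatocyte markers were abundant in both lines, and ALB, which encodes albumin, had mean levels of 12951 CPM in Huh7 P and 21566 CPM in Huh7 LR. Of the 8 hepatocyte markers, 4 were higher in Huh7 LR and 0 lower (23.3% and 22.4% of all genes and loci tested), with sums of 40190 to 48725 CPM in Huh7 P and 50001 to 52919 CPM in Huh7 LR. Of 8 macrophage and leukocyte markers, 4 were tested and 2 were lower (LYZ and CD68), where 45.7% of all genes and loci passed in either direction, and the list summed to 130 to 140 CPM in Huh7 P and 56.2 to 63.5 CPM in Huh7 LR. HLA-DRA and TYROBP had 0 counts in all 6 libraries, and PTPRC had at most 15. The 6 fibroblast markers summed to 2.16 to 2.28 CPM in Huh7 P and 5.02 to 8.02 CPM in Huh7 LR, with COL1A1 and PDGFRB higher and DCN at 0 counts in every library. The 6 red cell markers summed to at most 0.276 CPM in any library. Whether these markers bear on the differences below was not tested.

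Across genes the Huh7 LR libraries had Spearman correlations of 0.9803 to 0.9824 with each other, much like the Huh7 P libraries (0.9809 to 0.9815), but Huh7 LR replicate 2 lay at an end of its group for every member. Among the 3 it held the highest level for 5 of the 10 genes (GPX4, AIFM2, LPCAT3, FTH1 and FTL) and the lowest for the other 5 (SLC7A11, ACSL4, TFRC, NCOA4 and SLC40A1). Huh7 LR replicate 1 was highest or lowest for 8 genes and Huh7 LR replicate 3 for 2. Across 12293 expressed genes, its deviation from the mean of its line had a correlation of 0.30 with the GC content of the longest transcript and of -0.23 with transcript length, against -0.14 and 0.12 in Huh7 LR replicate 1 and -0.22 and 0.15 in Huh7 LR replicate 3. In Huh7 P the correlations with GC content were 0.22, -0.023 and -0.19, and those with transcript length were 0.11, -0.013 and -0.096, so that Huh7 P replicate 1 was like Huh7 LR replicate 2 in the sign for GC content and opposite to it for length. Deviations from a mean of 3 libraries sum to 0, which in part sets 1 library against the others. These are correlations across genes within a library, and genes are not independent replicates. GC content also moved with the difference between the lines, with a correlation of 0.16 across the same genes. The GC content of GPX4 was higher than in 92.1% of expressed genes, that of ACSL4 higher than in 6.49% and that of SLC7A11 higher than in 2.19%. Differences are given below also without Huh7 LR replicate 2 and with an offset for GC content, both of which are alternatives to the test with all 6 libraries. The offset was chosen after seeing the data. It was fitted to the deviation of each library from the mean of all 6 libraries. It therefore also takes out any difference between the lines that moves with GC content, whether technical or not.

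By adjusted p (limit 0.05), 3 of the 10 genes were higher in Huh7 LR (GPX4, LPCAT3 and SLC40A1), 1 was lower (SLC7A11) and 6 did not pass. In this comparison 45.7% of all genes and loci tested passed, 23.3% higher and 22.4% lower, so 4 of 10 is a share near the background. In bulk RNA, fewer cells of a type and less RNA per cell cannot be told apart. The same 4 genes had no overlap between the libraries of the lines, a separation found in 55.9% of all genes and loci (28.2% higher and 27.7% lower). The median log2 difference was 0.064 over the 10 genes and 0.0046 over all genes and loci tested. SLC7A11 was the single member past both 2-fold and an adjusted p of 0.001, limits that 6.21% of all genes and loci passed (4.43% higher and 1.78% lower).

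**Figure D1:**
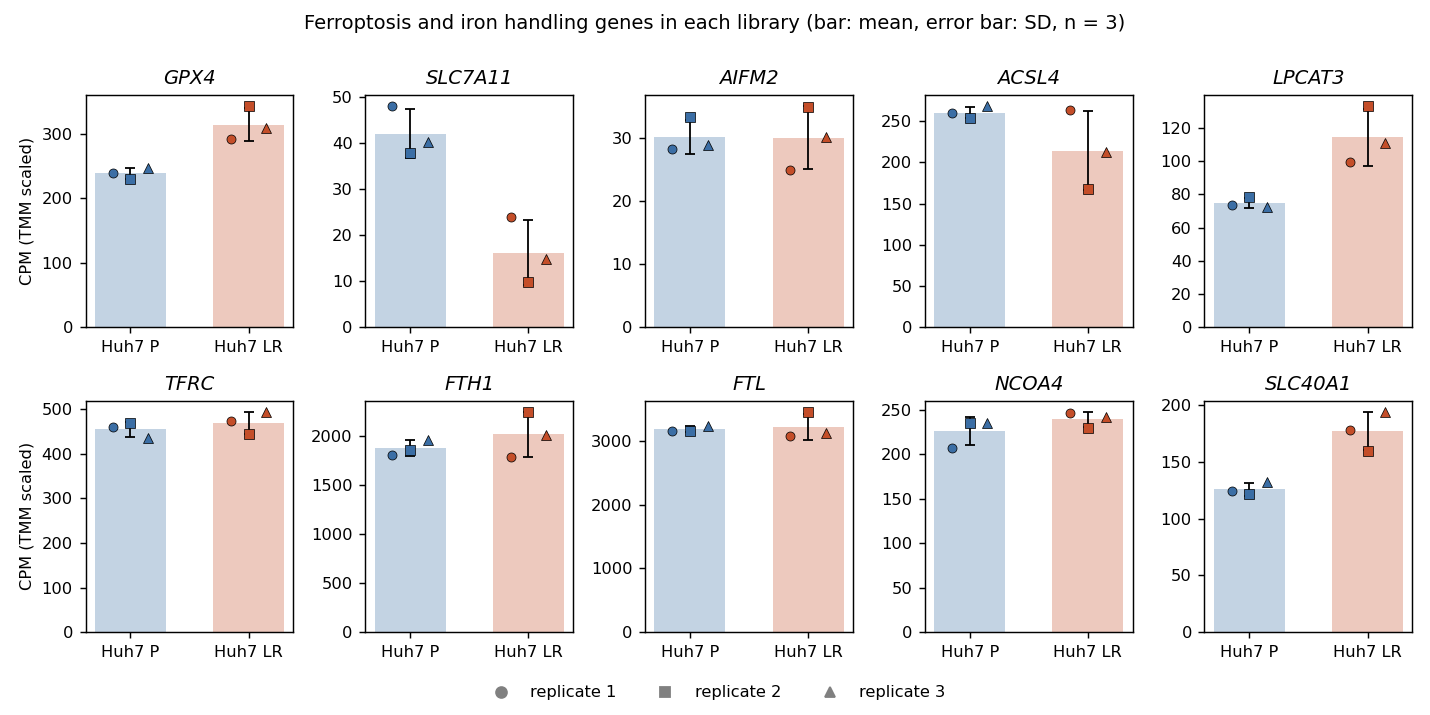
CPM of the 10 genes in each library, with circles, squares and triangles for replicates 1, 2 and 3, bars for the mean and error bars for the SD (n = 3). All 3 Huh7 LR libraries lie above all Huh7 P libraries for GPX4, LPCAT3 and SLC40A1 and below them for SLC7A11, and the squares of Huh7 LR are at 1 end of their group in every panel.

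Among the genes that limit lipid peroxidation, the cystine importer fell and the peroxidase rose. SLC7A11 (ENSG00000151012, chromosome 4, 138164097 to 138242349, minus strand; positions here and below are those of GENCODE 29 on GRCh38) had 48.0, 37.9 and 40.3 CPM in Huh7 P replicates 1 to 3 and 23.9, 9.82 and 14.8 CPM in Huh7 LR. Every Huh7 LR library lay below every Huh7 P library, and within Huh7 LR the highest value was more than 2-fold the lowest. The mean fell from 42.1 ± 5.29 CPM (SD over 3 libraries) to 16.2 ± 7.13 CPM (n = 3, SD), which is 0.384 of the parental level. Its log2 difference was -1.38 (SE 0.24, edgeR, adjusted p = 0.000848). Without Huh7 LR replicate 2 it was -1.11 (adjusted p = 0.000809) and with the GC offset -1.12 (adjusted p = 0.00279). The difference stayed under an adjusted p of 0.05 in all 16 alternatives, from -1.77 to -0.99, while the stricter limits of 2-fold and 0.001 were met in 7 of them. An antisense transcript, SLC7A11-AS1, shares 8.97% of the exon bases of SLC7A11 on the opposite strand and has no row in the table used here.

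GPX4 (ENSG00000167468, chromosome 19, 1103926 to 1106791, plus strand) had 239, 230.5 and 248 CPM in Huh7 P and 292, 343 and 309.7 CPM in Huh7 LR. The lowest Huh7 LR library was above the highest Huh7 P library. The mean rose from 239 ± 8.54 CPM (SD over 3 libraries) to 315 ± 26.0 CPM (n = 3, SD), a 1.32-fold change with a log2 difference of 0.40 (SE 0.076, edgeR, adjusted p = 0.0015). Without Huh7 LR replicate 2 the log2 difference was 0.34 and with the GC offset 0.29, and all 16 alternatives stayed under an adjusted p of 0.05.

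AIFM2 (ENSG00000042286, chromosome 10, 70098223 to 70132934, minus strand) had 28.3, 33.4 and 28.9 CPM in Huh7 P and 25.0, 35.0 and 30.2 CPM in Huh7 LR. The libraries of Huh7 LR spanned those of Huh7 P on both sides. The log2 difference was -0.0054 (95% interval -0.27 to 0.25, adjusted p = 0.976), with -0.12 without Huh7 LR replicate 2, 0.11 without Huh7 LR replicate 1 and -0.053 with the GC offset, none of which passed.

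Of the enzymes that build peroxidation-prone phospholipids, LPCAT3 was higher and ACSL4 did not pass in the edgeR test used throughout. ACSL4 (ENSG00000068366, chromosome X, 109624244 to 109733403, minus strand) activates arachidonic and adrenic acid. It had 259.7, 254 and 268 CPM in Huh7 P and 264, 167 and 212 CPM in Huh7 LR. The Huh7 P libraries lay close together, 2 of the Huh7 LR libraries lay below them, and Huh7 LR replicate 1 lay among them. The log2 difference was -0.28 (95% interval -0.57 to 0.0049, edgeR, adjusted p = 0.1). This gene depended on single libraries, since without Huh7 LR replicate 1 the log2 difference was -0.46 (adjusted p = 0.00269) and without Huh7 LR replicate 2 it was -0.12 (adjusted p = 0.303). With the GC offset it was -0.027 (adjusted p = 0.853). With all 6 libraries ACSL4 passed in the DESeq2 Wald test (-0.28, adjusted p = 0.0496) and in edgeR with a replicate block (-0.31, adjusted p = 0.0308).

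LPCAT3 (ENSG00000111684, chromosome 12, 6976186 to 7018510, minus strand) encodes the acyltransferase that inserts arachidonoyl chains into lysophospholipids. Its levels were 73.8, 78.4 and 72.5 CPM in Huh7 P and 99.4, 133 and 111 CPM in Huh7 LR, with no overlap. The mean rose from 74.9 ± 3.08 CPM (SD over 3 libraries) to 115 ± 17.1 CPM (n = 3, SD), a 1.53-fold change with a log2 difference of 0.61 (SE 0.099, edgeR, adjusted p = 0.000486). It was 0.50 without Huh7 LR replicate 2 and 0.58 with the GC offset.

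The rise of LPCAT3 was lost when reads of its neighbour were added. EMG1, a ribosome biogenesis gene on the opposite strand, shares 65.6% of the exon bases of LPCAT3. All shares of exon bases in this text are taken over the merged exons of all annotated transcripts of a gene. They are not shares of the transcript expressed here. The kit named in the labels is not sold as one that marks strand. The strand setting of the counting is not given, and without strand the reads of the shared bases cannot be told apart. The counts of EMG1 were 7224, 6679 and 6215 in the parental replicates against 5257, 6152 and 5448 in the resistant ones, with a log2 difference of -0.29 (edgeR, adjusted p = 0.00802). Those of LPCAT3 were 5296, 4836 and 4741 in the parental replicates against 6478, 9329 and 7589 in the resistant ones. Summed, the pair had 176 ± 9.65 CPM (n = 3, SD) in Huh7 P and 197 ± 21.2 CPM (n = 3, SD) in Huh7 LR, and the groups overlapped. The log2 difference of the sum was 0.16 (edgeR, adjusted p = 0.145), an alternative chosen after seeing the data. EMG1 had more counts than LPCAT3 in every Huh7 P library and was lower in Huh7 LR. Adding it therefore shrinks the difference even if every read was assigned correctly, and whether reads were misassigned was not tested.

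**Figure D2:**
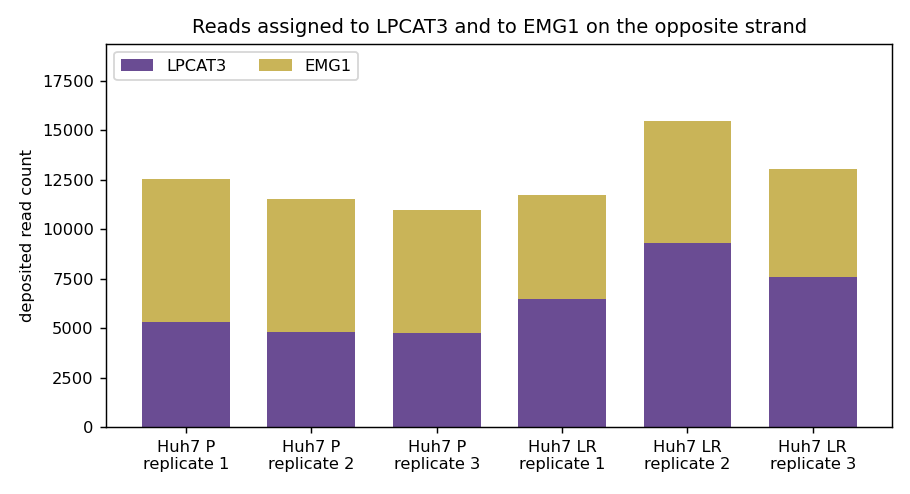
Deposited read counts of LPCAT3 and EMG1, stacked for each library and not scaled for depth. LPCAT3 counts are 4741 to 5296 in Huh7 P and 6478 to 9329 in Huh7 LR, while EMG1 counts are 6215 to 7224 in Huh7 P and 5257 to 6152 in Huh7 LR.

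The genes for iron uptake, storage and release did not pass in the test with all 6 libraries. TFRC (ENSG00000072274, chromosome 3, 196027183 to 196082189, minus strand), the transferrin receptor whose 3′ hairpins are shown above, had 460.3, 467.5 and 435 CPM in Huh7 P and 473, 443 and 492 CPM in Huh7 LR. The groups overlapped, and the log2 difference was 0.047 (95% interval -0.11 to 0.20, edgeR, adjusted p = 0.62). With the GC offset it was 0.23 (adjusted p = 0.0131), which passed, and without Huh7 LR replicate 2 it was 0.095 (adjusted p = 0.241). It was 0.011 without Huh7 LR replicate 3 and 0.014 without Huh7 P replicate 3 (adjusted p = 0.936 and 0.911).

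FTH1 (ENSG00000167996, chromosome 11, 61959718 to 61967660, minus strand) encodes the ferritin heavy chain, which oxidises iron as it enters the shell. It had 1812, 1856 and 1968 CPM in Huh7 P and 1787, 2254 and 2018 CPM in Huh7 LR, so that Huh7 LR replicate 1 was below all parental libraries and replicates 2 and 3 were above them. The log2 difference was 0.10 (95% interval -0.089 to 0.30, adjusted p = 0.362). FTH1 was at 0.026 without Huh7 LR replicate 2, at 0.18 without Huh7 LR replicate 1 and at 0.041 with the GC offset, none of which passed. BEST1 shares 62.4% of its exon bases on the opposite strand, with 46 to 240 counts in 4 libraries but 3189 in Huh7 P replicate 3 and 3616 in Huh7 LR replicate 1, which is small beside at least 114525 counts for FTH1. With BEST1 added, the log2 difference of FTH1 was 0.10 (adjusted p = 0.34).

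FTL (ENSG00000087086, chromosome 19, 48965301 to 48966878, plus strand), the ferritin light chain, had 3162, 3149 and 3240.2 CPM in Huh7 P and 3084, 3461 and 3124 CPM in Huh7 LR, again with the Huh7 LR libraries on both sides of the parental ones. Its log2 difference was 0.018 (95% interval -0.14 to 0.17, adjusted p = 0.859). The sign turned to -0.028 without Huh7 LR replicate 2 and to -0.036 with the GC offset. NCOA4 (ENSG00000266412, chromosome 10, 46005088 to 46030714, minus strand), the cargo receptor for ferritin breakdown, had 207, 235 and 235 CPM in Huh7 P and 246.5, 229.7 and 242 CPM in Huh7 LR, with a log2 difference of 0.082 (95% interval -0.08 to 0.24, adjusted p = 0.395). NCOA4 was at 0.12 without Huh7 LR replicate 2, at 0.021 without Huh7 P replicate 1 and at 0.14 with the GC offset, none of which passed. For FTH1, FTL and NCOA4 the upper limit of the interval was 0.30 or less and the lower limit -0.14 or more. Processed pseudogenes of the ferritin genes have no rows under their own names in the table, so reads that belong to them could not be separated.

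Of the 5 members that handle iron, SLC40A1 alone passed in the test with all 6 libraries. SLC40A1 (ENSG00000138449, chromosome 2, 189560579 to 189583758, minus strand) had 124, 121 and 132 CPM in Huh7 P and 178, 159.9 and 194 CPM in Huh7 LR, with no overlap. Its mean rose from 126 ± 5.60 CPM (SD over 3 libraries) to 177 ± 17.0 CPM (n = 3, SD), a 1.41-fold change with a log2 difference of 0.49 (SE 0.082, edgeR, adjusted p = 0.000561). The log2 difference was 0.57 both without Huh7 LR replicate 2 and with the GC offset, and all 16 alternatives stayed under an adjusted p of 0.05. Messenger levels do not show translation, which in the textbook account is controlled through 5′ hairpins in the mRNA of ferroportin and ferritin.

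**Figure D3:**
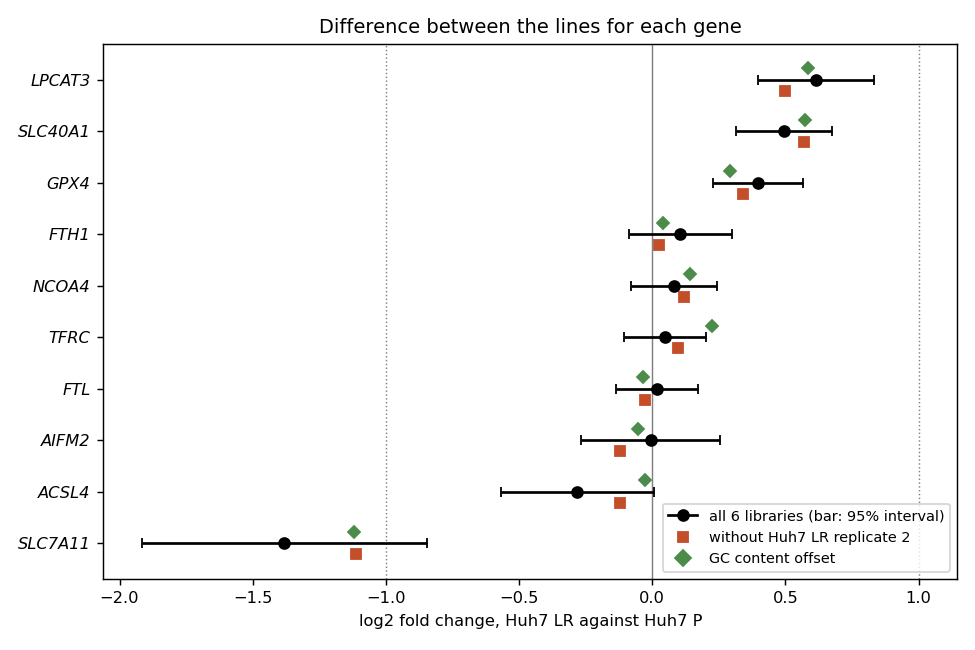
Log2 fold change of Huh7 LR against Huh7 P for each gene, with circles and bars for the estimate and its 95% interval from all 6 libraries, squares for the estimate without Huh7 LR replicate 2 and diamonds for the GC content offset. The intervals of LPCAT3, SLC40A1 and GPX4 lie above 0 and that of SLC7A11 below it, ACSL4 moves from -0.28 to -0.12 and -0.027 under the 2 alternatives, and TFRC moves from 0.047 to 0.095 and 0.23.

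Ratios within a library do not depend on the scaling between libraries, and 7 were compared by two-sided exact permutation tests, whose smallest possible p is 0.1 for groups of 3. The log2 ratio of ACSL4 to GPX4 counts was 0.12, 0.14 and 0.11 in the parental replicates against -0.15, -1.04 and -0.55 in the resistant ones. The parental values lay within a narrow range, all 3 Huh7 LR values were below it, and the difference was -0.70 (exact permutation p = 0.1, adjusted p = 0.175 over the 7 ratios). Without Huh7 LR replicate 2 it was -0.47, and the GC offset, which was not applied to ratios, moved ACSL4 to -0.027 and GPX4 to 0.29 as single genes. The other 3 ratios that separated the lines were -0.28 (ACSL4 to ACSL3), -1.11 (SLC7A11 to SLC3A2) and 0.55 (SLC40A1 to FTH1) without that library. The log2 ratio of ACSL4 to ACSL3, a fatty acid ligase known for activating monounsaturated chains, differed by -0.36, also without overlap (exact permutation p = 0.1, adjusted p = 0.175). SLC7A11 relative to SLC3A2, the heavy chain that it pairs with in the cystine transporter, differed by -1.50, from a mean of -2.41 ± 0.19 (SD over 3 libraries) to -3.91 ± 0.765 (n = 3, SD), with the same p-values. SLC40A1 relative to FTH1 differed by 0.39 (exact permutation p = 0.1, adjusted p = 0.175), with Huh7 LR replicate 2 at -3.82 next to the highest parental value of -3.87. The ratios of TFRC to FTH1 (difference -0.053, exact permutation p = 0.8), TFRC to FTL (0.03, exact permutation p = 0.7) and FTH1 to FTL (0.083, exact permutation p = 0.3) overlapped between the lines, and that of FTH1 to FTL was 0.14 without Huh7 LR replicate 1 and 0.053 without Huh7 LR replicate 2. Of the 7 ratios, 4 did not overlap and 0 passed an adjusted p of 0.05, which this number of samples could not give. Among single genes and loci, 55.9% did not overlap. GPX4, SLC7A11 and SLC40A1, each part of a ratio that separated, also separated the lines on their own.

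Compared per length with the authors' FPKM values, the order of the 10 genes in Huh7 P was FTL (3330 ± 36.9 FPKM, SD, n = 3), FTH1 (1560 ± 69.8), GPX4 (276 ± 8.82), TFRC (81.9 ± 3.62), NCOA4 (60.4 ± 3.92), ACSL4 (47.2 ± 2.85), SLC40A1 (33.6 ± 1.33), LPCAT3 (29.9 ± 1.26), AIFM2 (8.62 ± 0.776) and SLC7A11 (4.01 ± 0.544). No neighbours in that order overlapped in Huh7 P. In Huh7 LR the first 5 places were unchanged, and SLC40A1 (48.2 ± 4.79 FPKM, SD, n = 3) and LPCAT3 (46.7 ± 6.81) stood before ACSL4 (39.6 ± 9.07), but SLC40A1 overlapped LPCAT3 and LPCAT3 overlapped ACSL4. AIFM2 (8.80 ± 1.38 FPKM) and SLC7A11 (1.57 ± 0.708) were last. The ferritin chains were thus the most abundant of the 10 in each line and SLC7A11 the least.

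**Figure D4:**
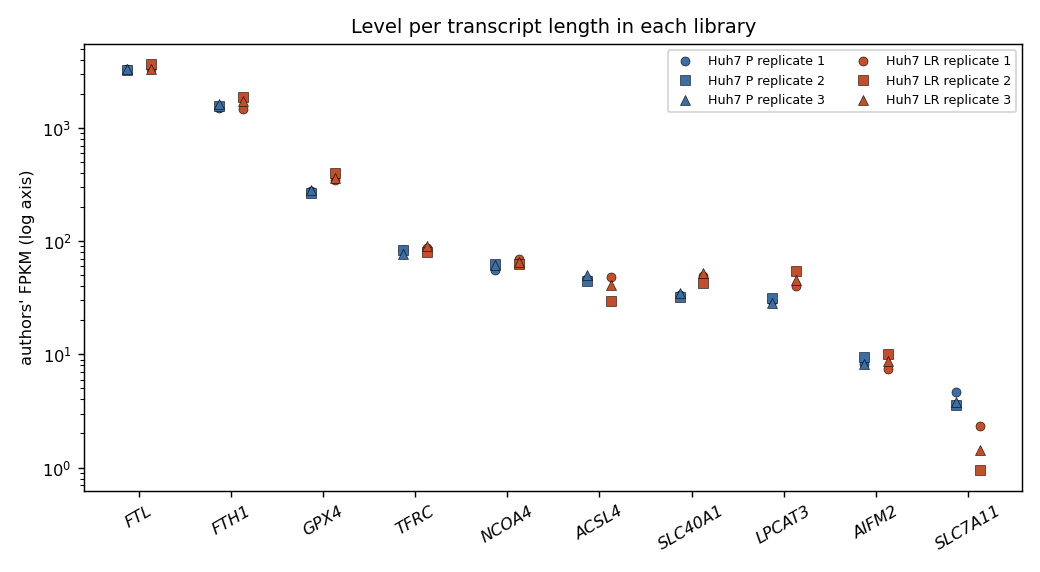
FPKM of the 10 genes in each library on a log axis, ordered by the mean in Huh7 P, with blue for Huh7 P and orange for Huh7 LR and a marker for each replicate. FTL is near 3330 FPKM and SLC7A11 near 4.01 FPKM in Huh7 P, and the libraries of SLC40A1, LPCAT3 and ACSL4 run together in Huh7 LR.

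The genes around these 10 were counted in 8 lists of 105 genes, 98 of them tested. By adjusted p (limit 0.05), there were 29 higher, 27 lower and 42 that did not pass (15 lower without Huh7 P replicate 2 and 16 without Huh7 LR replicate 3), and the 57.1% that passed stand beside 45.7% of all genes and loci (23.3% higher and 22.4% lower), which is also the background for each list below. Past 2-fold and an adjusted p of 0.001, 6 were higher, which were TFR2, SLC39A8, SLC46A1, TMPRSS6, HMOX1 and ACSL5, and 0 were lower, which is near the 6.21% of all genes and loci past these limits (4.43% higher). SLC46A1 lies outside the rule for named genes and is named after its values were seen, and SARM1 shares 56.4% of its exon bases on the opposite strand.

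In the list of glutathione and cystine supply, 1 of 12 tested genes was higher, 2 were lower and 9 did not pass, with a median log2 difference of -0.046. GCLM, the modifier subunit of the enzyme that starts glutathione synthesis, had 41.1, 42.7 and 43.0 CPM in Huh7 P and 25.1, 24.2 and 25.6 CPM in Huh7 LR. The libraries of each line lay close together and far from the other line, and the log2 difference was -0.76 (edgeR, adjusted p = 1.14e-05). The catalytic subunit GCLC had a log2 difference of 0.16 (adjusted p = 0.0871; with the GC offset it passed at 0.18, adjusted p = 0.0331) and SLC3A2 one of 0.034 (adjusted p = 0.753). SLC1A5, a glutamine transporter, had a log2 difference of -0.88 (adjusted p = 3.32e-06), and GGT7 one of 0.48 (adjusted p = 0.000605).

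Among the genes that make selenoproteins such as GPX4, 3 of 9 were higher, 3 were lower and 3 did not pass, with a median of -0.055. SELENOP, which encodes the plasma carrier of selenium made by the liver and shares 25.5% of its exon bases with CCDC152 on the opposite strand, had a log2 difference of 0.62 (adjusted p = 0.000194), whereas LRP8, a receptor that takes the carrier up, had one of -0.98 (adjusted p = 4.95e-06). PSTK, with a log2 difference of 0.80 (adjusted p = 0.00319), and SEPSECS, with one of -0.35 (adjusted p = 0.0217), act in turn on the tRNA for selenocysteine. SEPSECS lost its call with the GC offset (adjusted p = 0.389), in both limma settings on FPKM (adjusted p = 0.0597 and 0.0589) and without any 1 of Huh7 P replicates 1, 2 and 3 or Huh7 LR replicate 3 (adjusted p from 0.0502 to 0.08). It ran from -0.46 without Huh7 LR replicate 1 to -0.22 without Huh7 LR replicate 2.

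In the list for making and oxidising polyunsaturated phospholipids, 9 of 16 were higher, 2 were lower and 5 did not pass, with a median of 0.23, beside 23.3% higher and 22.4% lower among all genes and loci. ACSL5 had a log2 difference of 1.06 (adjusted p = 2.63e-06) and ACSL1 one of 0.86 (adjusted p = 1.19e-05), and both, like ACSL4, activate long-chain fatty acids. ACSL3 had a log2 difference of 0.059 (adjusted p = 0.644), but with the GC offset it passed at 0.31 (adjusted p = 0.00647). ALOX15, a lipoxygenase, fell by 1.20 on the log2 scale from 1.23 CPM (adjusted p = 0.00234), and MBOAT1, a lysophospholipid acyltransferase, had a log2 difference of -0.42 (adjusted p = 0.0114), which missed the limit without Huh7 P replicate 2 (adjusted p = 0.052).

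Of the 15 genes for radical trapping beside GPX4, 1 was higher, 7 were lower and 7 did not pass, with a median of -0.16, beside 23.3% higher, 22.4% lower and 45.7% either way among all genes and loci. NQO1, a quinone reductase, had 538, 582 and 582 CPM in Huh7 P and 328, 361 and 331 CPM in Huh7 LR, with a log2 difference of -0.74 (edgeR, adjusted p = 1.5e-05). COQ3, of coenzyme Q synthesis, had a log2 difference of -0.95 (adjusted p = 0.000226), and DHODH, which reduces coenzyme Q in mitochondria, one of -0.31 (adjusted p = 0.0137). The call of DHODH was lost in both limma settings (adjusted p = 0.157 in each) and without Huh7 P replicate 2 (adjusted p = 0.0739). GCH1, which starts tetrahydrobiopterin synthesis, had a log2 difference of -0.16 (adjusted p = 0.12), or -0.0997 without Huh7 P replicate 3. The higher gene was DHCR7, whose loss raises the antioxidant sterol precursor that it consumes, with a log2 difference of 0.53 (adjusted p = 0.000283).

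The list of iron uptake and the transferrin cycle held 10 tested genes, of which 4 were higher, 2 were lower and 4 did not pass (median 0.027). TFR2, the second transferrin receptor, which senses iron-loaded transferrin in hepatocytes, had 2.65, 3.79 and 2.42 CPM in Huh7 P and 20.6, 16.5 and 18.6 CPM in Huh7 LR. Every Huh7 LR library was more than 4-fold above every parental library, and the log2 difference was 2.65 (SE 0.17, edgeR, adjusted p = 1.05e-06). SLC39A8, a transporter of zinc, manganese and iron, rose from 9.79 ± 1.39 CPM (SD over 3 libraries) to 30.3 ± 2.56 CPM (n = 3, SD), a log2 difference of 1.63 (adjusted p = 1.84e-06). TF, transferrin itself, had a log2 difference of 0.48 (adjusted p = 0.000456) from 3740 CPM, but in limma on FPKM TF was at 0.38 and did not pass (adjusted p = 0.0699 and 0.0689 with 0.1 and 1 added). HFE, a partner of the transferrin receptors, had one of -0.37 (adjusted p = 0.00842), SLC39A14 one of -0.033 (adjusted p = 0.723; from -0.077 without Huh7 P replicate 3 to -0.0064 without Huh7 P replicate 1) and STEAP3, the endosomal iron reductase, one of -0.055 (adjusted p = 0.727). HFE did not pass in limma on FPKM either (-0.25 and -0.20, adjusted p = 0.0987 and 0.0978).

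In iron sensing and export, 3 of 9 tested genes were higher, 2 were lower and 4 did not pass (median 0.21). TMPRSS6, the protease that restrains the signal for hepcidin, had 3.02, 3.92 and 3.18 CPM in Huh7 P and 20.9, 27.2 and 26.7 CPM in Huh7 LR. Its log2 difference of 2.89 (SE 0.14, edgeR, adjusted p = 1.97e-07) was the highest of the 98 genes tested in the lists. HAMP, the hepcidin gene, had 0 counts in all 6 libraries, which allows up to 3 counts or 0.042 to 0.0478 CPM by counting error. ACVR1, a receptor of bone morphogenetic proteins, had a log2 difference of 0.53 (adjusted p = 0.000158). CP, the ferroxidase ceruloplasmin that works with ferroportin, had a log2 difference of -1.08 (adjusted p = 0.00234), with 25.6, 30.5 and 32.1 CPM in Huh7 P and 17.6, 8.11 and 16.0 CPM in Huh7 LR, and HPS3 shares 19.4% of its exon bases on the opposite strand. Of the regulators that bind the hairpins, IREB2 had a log2 difference of -0.45 (adjusted p = 0.00641) and ACO1 one of -0.18 (adjusted p = 0.0657), while FBXL5, which marks the product of IREB2 for breakdown, had one of 0.30 (adjusted p = 0.00395). The GC offset moved IREB2 to -0.22 (adjusted p = 0.0525) and ACO1 to -0.16 (adjusted p = 0.0449), and without Huh7 LR replicate 2 ACO1 was at -0.23 (adjusted p = 0.0106).

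Among genes of intracellular iron and heme, 6 of 16 were higher, 3 were lower and 7 did not pass (median 0.063). HMOX1, which frees iron from heme, had 25.2, 23.0 and 22.2 CPM in Huh7 P and 46.5, 79.0 and 65.0 CPM in Huh7 LR, with a log2 difference of 1.44 (SE 0.16, edgeR, adjusted p = 3.23e-05). ALAS1, the first enzyme of heme synthesis in liver, had a log2 difference of 0.80 (adjusted p = 4.01e-06) and PCBP1, an iron chaperone for ferritin, one of -0.24 (adjusted p = 0.016). PCBP1 missed the limit without Huh7 P replicate 1 (adjusted p = 0.0608), Huh7 P replicate 2 (adjusted p = 0.0509) or Huh7 LR replicate 3 (adjusted p = 0.0598). In the list of ferroptosis regulators, 2 of 11 were higher, 6 were lower and 3 did not pass (median -0.24). NFE2L2, which encodes the antioxidant regulator NRF2, had a log2 difference of -0.42 (adjusted p = 0.00146), FANCD2 one of -0.61 (adjusted p = 3.34e-05) and HSPB1 one of -0.60 (adjusted p = 0.00418). SAT1, of polyamine breakdown, had a log2 difference of 0.56 (adjusted p = 0.000128) and YAP1 one of 0.37 (adjusted p = 0.00191).

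**Figure D5:**
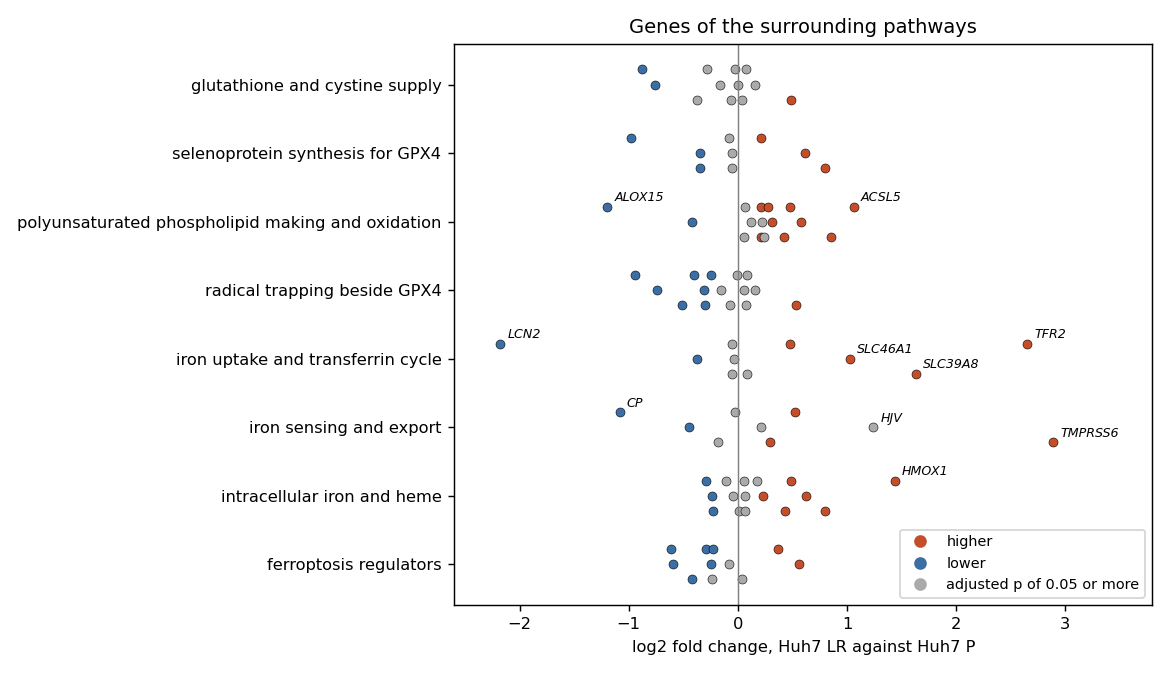
Log2 fold change of Huh7 LR against Huh7 P for the 98 tested genes of the 8 lists, with orange for higher, blue for lower and grey for an adjusted p of 0.05 or more, and names for changes above 2-fold. TMPRSS6 at 2.89 and TFR2 at 2.65 lie farthest to the right, and 7 of the 15 genes of radical trapping are blue, where 22.4% of all genes and loci tested were lower.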

How the data were processed

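RNA-seq of 3 Huh7 P and 3 Huh7 LR samples was used. The authors deposited 1 table with read counts per gene, not normalised, and FPKM values, which the authors scaled for transcript length and library size. The submitters' processing notes list TopHat2, Cufflinks, DESeq and mm10, a mouse build, and the labels name an insect as the source of RNA, whereas all 19974 gene identifiers are human and present in GENCODE release 29 (GRCh38), of which 19910 have the same symbol. The library kit named in the labels is not a strand-marking one, and the strand setting used for counting is not given in the sources used here. Unannotated loci held between 2.86% and 3.35% of counts, and 34 lines that name no gene were left out. Depth, at 62738937 to 71427573 counts per library, sets the precision, and limits from counts cover counting error only.

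Differences were tested with edgeR 4.0.16 under R 4.3.3 (filterByExpr with a minimum count of 10 and minimum total of 15, TMM, quasi-likelihood test, Benjamini-Hochberg adjustment over 17531 genes and loci). Intervals are 95% intervals. Alternatives used DESeq2 1.42.0, limma 3.58.1 on log2(FPKM + 0.1) and log2(FPKM + 1), other filters, a replicate block, annotated genes only, each library left out, and, chosen after seeing the data, a GC content offset and sums with genes that share at least 5% of a member's exon bases on the opposite strand. Ratios were tested with scipy 1.17.1. Genes named are the 10 members, 20 pathway genes fixed by name, and in each of the 8 lists the 2 highest and 2 lowest log2 fold changes among genes with an adjusted p under 0.05 and at least 1 CPM in a line, of which 1 gene is not reported here. The members and lists were chosen from general knowledge with earlier results of these data known. The scripts were tested on simulated data.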

Additional observations from a re-analysis of the deposited data

How the results depend on the processing

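Over all members, the 3 higher genes and SLC7A11 kept direction and stayed under an adjusted p of 0.05 in every alternative, except LPCAT3 summed with EMG1 (0.16, adjusted p = 0.145). Of 340 values for the 25 results that answer a comparison, 315 were scored as unchanged. Members were scored by direction and side of the limit, and counts of genes by staying within a fixed fold of the main count. Ratios were scored by sign alone. Of 638 values for 40 single genes, 599 kept direction and side of the limit, 25 lost and 7 gained a call, and 7 turned sign. Past 2-fold and an adjusted p of 0.001, limma with 1 added to FPKM gave 268 genes higher and 84 lower, against 776 and 312, and the cause was not tested. ACSL4 passed with the DESeq2 Wald test (-0.28, adjusted p = 0.0496) and the replicate block (-0.31, adjusted p = 0.0308), which made 2 members lower in each, as did leaving out Huh7 LR replicate 1. Same-numbered libraries deviated with correlations of 0.073, 0.099 and 0.029, and 2 of 3 numbers correlated best with their own, so the numbers were not taken to pair samples. The block changed no other call among the members. AIFM2 turned to 0.011 with at least 10 counts in every library and to 0.021 and 0.0197 in limma with 0.1 and 1 added to FPKM. With the GC offset, without and with the replicate block, FTL was -0.036 and -0.036, TFRC 0.23 and 0.23 (adjusted p = 0.0131 and 0.0162), and SLC3A2 -0.034 and -0.036. SLC39A14 was 0.0013 under both limma settings. Leaving out each library gave ranges of -0.46 to -0.12 for ACSL4, -0.12 to 0.11 for AIFM2, -0.028 to 0.048 for FTL, 0.026 to 0.18 for FTH1, 0.021 to 0.12 for NCOA4, 0.011 to 0.095 for TFRC, -0.21 to -0.0997 for GCH1, -0.077 to -0.0064 for SLC39A14, -0.059 to 0.16 for ACSL3, -0.0401 to 0.079 for SLC3A2, -0.15 to 0.058 for STEAP3, 1 to 2 for members lower, 15 to 27 for listed genes lower (15 without Huh7 P replicate 2, 16 without Huh7 LR replicate 3), -0.14 to 0.071 for the log2 ratio of TFRC to FTH1 and -0.026 to 0.12 and 0.053 to 0.14 for those of TFRC to FTL and FTH1 to FTL. These ends came from leaving out Huh7 LR replicate 1 or 2 for genes and ratios, except the lower ends for NCOA4 (without Huh7 P replicate 1), TFRC and TFRC to FTL (without Huh7 LR replicate 3) and both ends for GCH1 and SLC39A14 (without Huh7 P replicate 1 or 3). Sums with processed pseudogenes gave no value because the table holds no such rows. The lowest count of any member was 688, for SLC7A11 in Huh7 LR replicate 2.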
